A study of Agaricus blazei with 33 samples.

Results

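The genes described here are the histones and chromatin regulators of *Agaricus blazei*, chosen by protein domain and not by their expression. A gene was a member when its Pfam annotation in the deposited table held a core histone, linker histone, SET, bromodomain, chromo, histone deacetylase, JmjC, SNF2 or PHD finger domain. This rule gave 91 of 10337 genes, with 12 core histones, 3 linker histones, 14 SET, 10 bromodomain, 16 chromo, 6 histone deacetylase, 4 JmjC, 22 SNF2 and 7 PHD finger genes, where 3 genes with more than 1 of these domains were counted in each class (A03642, bromodomain and SNF2; A08360, chromo and PHD finger; A09349, chromo and SNF2). The members lay on 23 of the 33 contigs of the table, none overlapped another gene, and 4 of them were genes added by StringTie to the Augustus gene models.

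RNA of strain JA, a heterokaryotic cultivated strain, was sequenced in 33 libraries, with 3 replicates for each of 11 conditions. These were mycelia taken 20 days after casing, primordia at the pinhead stage with an undifferentiated velum, and the whole fruit body, the pileus and the stipe, each at the button, harvest and maturation stage. No agent or mutation separated the groups. The reads had been aligned to the assembly of JA-15036, a single-spore isolate, so transcripts that differed between the nuclei of strain JA were counted on 1 haplotype, and levels are in FPKM, fragments per kilobase of gene length and per size of the library.

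In eukaryotes, DNA is wound around octamers of the core histones H2A, H2B, H3 and H4, and linker histone H1 binds where the DNA enters and leaves. Most core histone protein is made in S phase, when new DNA has to be packaged, while replication-independent variants are also made outside it. Enzymes add and remove marks on histone tails (SET methyltransferases, JmjC demethylases, deacetylases), reader domains bind marked tails (bromodomain to acetylated lysine, chromo and PHD finger domains mostly to methylated lysine), and SNF2 ATPases slide, evict or exchange nucleosomes. In a mushroom, growth by cell division in young tissue gives way to cell expansion in the stipe, and karyogamy and meiosis take place in the basidia of the pileus.

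Reads on genes, read back from the FPKM, ranged from 15573864 to 21454052 per library with a median of 18106545. The hydrophobin A01724 stood at 2609, 1566 and 2416 FPKM in the mycelia and at no more than 2.59 in any later library. In contrast, 8 libraries correlated better across genes with another condition than with their own, among them all 3 button and all 3 maturation fruit bodies, which hold pileus and stipe together. The other 2 were button stipe 1, closest to primordia (mean r = 0.964, against 0.928 with its own condition), and maturation pileus 3, closest to the maturation stipes (0.940 against 0.889). The hydrophobin A06219 also set these 2 apart, at 23911, 589 and 377 FPKM in the button stipes and 35674, 67898 and 2282 in the maturation pilei. Results on pileus and stipe are given with all libraries. Counts of members and histones that use these 2 libraries, and values of some genes, are therefore also given without them. This was chosen after the data were seen. A value given alone is from all libraries and may depend on these 2. The part of mixed tissue in these values was not tested.

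The members were most often highest in the button pileus and lowest in the maturation stipe. Of the 81 members with a mean FPKM of at least 0.5, 34 (42.0%) had their highest condition mean in the button pileus, against 12.2% of the 9449 genes of the table at this level, and 45 (55.6%) had their lowest in the maturation stipe, against 18.4%. The ratio of the highest to the lowest condition mean had a median of 2.998 for the members and 3.60 for all genes, and it was under 2 in 24 members (29.6%, against 18.1%). The median ratio was 25.4 for linker histones, 7.96 for core histones, 5.31 for the 6 expressed chromo genes, 3.46 for deacetylases, 2.80 for SET, 2.35 for SNF2, 2.01 for JmjC, 1.84 for bromodomain and 1.81 for PHD finger genes. The median was thus above that of all genes for the histones and the chromo genes and below it for the other classes.

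**Figure D1:**
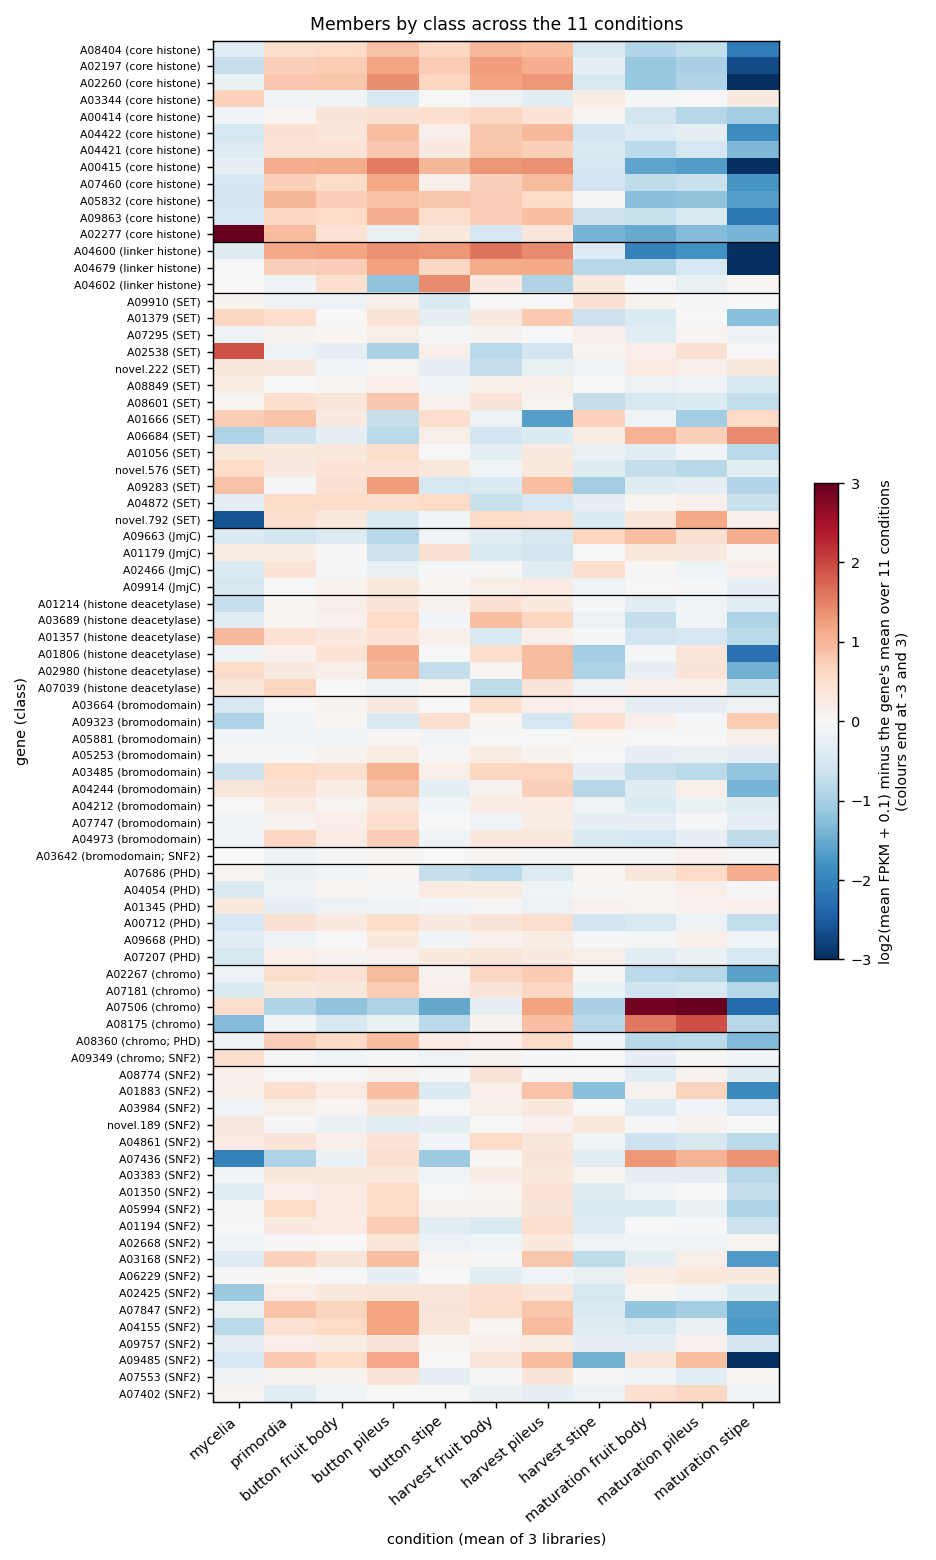
Heat map of the 81 members with a mean FPKM of at least 0.5, a row per gene ordered by domain class and a column per condition. Colour gives log2(mean FPKM + 0.1) minus the gene's mean over the 11 conditions, with the scale ending at -3 and 3. Most histone rows are high from primordia to the harvest pileus and low in the maturation stipe, with A03344, A02277 and A04602 as exceptions. In the maturation stipe 45 of the 81 rows have their lowest value.

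A call below is an adjusted p under 0.05 in the limma fit over all genes together with a log2 difference of at least 1 in size, on the log2(FPKM + 0.1) scale. From mycelia to primordia, 14 of 80 members tested rose (15.1% of all genes tested were called higher) and 3 fell (22.5%), so the count of rises was near the background. From primordia to button fruit bodies no member was called in either direction, where 0.0216% and 0.0108% of all genes were called higher and lower, 3 members and 1141 genes had an unadjusted p under 0.05, and the test on recovered reads (voom) also called 0 members. Without button fruit body 2, which correlated best with the button stipes, A07436 was called higher (1.06) and A02277 lower (-1.29). In the button stage, 7 of 81 members were higher in the pileus (7.91% of all genes) and 3 were higher in the stipe (9.96%). In the harvest stage the pileus was higher in 23 members (16.7%) and the stipe in 4 (14.9%). In the maturation stage the pileus was higher in 16 (13.6%) and the stipe in 1 (11.5%).

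From button to maturation, 21 members fell in the pileus (12.5% of all genes) and 4 rose (13.7%), and 25 fell in the stipe (13.8%) and 4 rose (12.4%). The difference between pileus and stipe itself changed over these stages in 5 members, upwards in 3 (5.9%) and downwards in 2 (3.48%). Without button stipe 1 and maturation pileus 3, the pileus was higher in 18 members and the stipe in 6 at the button stage (13.7% and 15.7% of all genes), and in 23 and 3 at maturation (20.3% and 18.1%). Without them, 20 members fell and 4 rose in the pileus (12.5% and 15.2%), 24 fell and 2 rose in the stipe (14.4% and 12%), and the difference between the tissues changed upwards in 16 and downwards in 5 (15.7% and 11%). These replicates are separate samples by their labels, with nothing said of separate cultures, so the p-values measure the spread between these samples. Strain, kit and sequencing were shared by all groups. In bulk RNA, fewer dividing cells and a smaller share of these transcripts within each cell cannot be told apart.

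The 12 core histone genes were transcribed at very unequal levels and, apart from 2 of them, followed a similar course. A00414 shared the late fall, but its mycelia and primordia overlapped. Its log2 difference of pileus minus stipe was -0.03 at the button and 0.18 at the maturation stage. A08404 (contig 6, 810448 to 811075, minus strand), which carries the C-terminal domain of H2A, was the most abundant over the 33 libraries. It stood at 1975, 2086 and 2371 FPKM in mycelia, 3358, 3364 and 4787 in primordia, 4599, 3103 and 4176 in button fruit bodies and 5489, 3636 and 6446 in harvest fruit bodies. All primordia libraries lay above all mycelia libraries, while primordia and button fruit bodies overlapped. In the pileus it was 4666, 4816 and 5251 at the button, 3997, 5809 and 5233 at the harvest and 2003, 2004 and 749 at the maturation stage, and in the stipe 5647, 3271 and 3350.2, 1988, 1191 and 2675 and 625, 604 and 639.8. The pileus libraries overlapped between button and harvest, while all harvest stipes lay below all button stipes and all maturation stipes lower still. The fall from button to maturation was -1.76 ± 0.38 (log2, SE; limma adjusted p = 0.00187) in the pileus and -2.67 ± 0.38 (adjusted p = 1.00e-04) in the stipe, and -1.29 and -2.41 without the 2 libraries named above.

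Summed over the 11 core histones other than A09863, FPKM was 8858 ± 534 (SD, n = 3) in mycelia, 14292 ± 2551 in primordia, 14631 ± 3051 in button fruit bodies and 18705 ± 5061 in harvest fruit bodies. The pileus held 18581 ± 1310.0 at the button, 18098 ± 3378 at the harvest and 6361 ± 1814 at the maturation stage. The stipe held 14376 ± 5178, 8289.7 ± 2342 and 3604 ± 214. The libraries of the button stipe were 20349.7, 11169.8 and 11607, the first of which is the library closest to primordia, and those of the maturation pileus were 7416, 7402 and 4266. No mycelia library reached the lowest primordia library, no harvest stipe reached a harvest pileus, and no maturation stipe reached a maturation pileus. With 3 against 3 libraries an exact two-sided permutation test cannot go below p = 0.1, so these sums are given without a test.

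**Figure D2:**
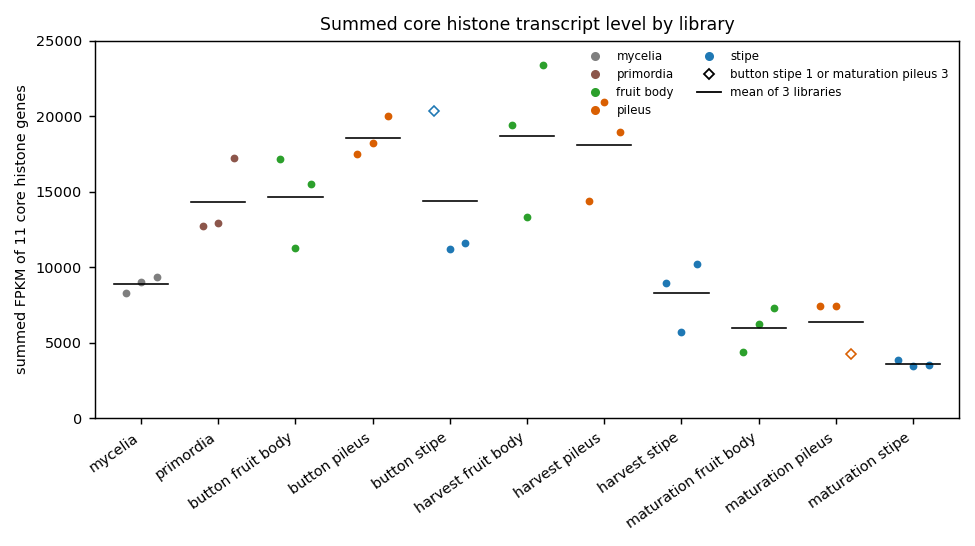
Summed FPKM of 11 core histone genes in each of the 33 libraries by condition, on a linear axis from 0, with a bar at the mean of the 3 libraries of each. The maturation stipes lie between 3465 and 3850, below every other library, and the button pilei between 17468 and 20024.

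Of the other core histones, A02197 and A02260 were next to A08404 in level and in course. A02197 (contig 16, 92865 to 93381, minus strand) stood at 884, 1202 and 1129.7 FPKM in mycelia and 2452, 2550.4 and 3609 in primordia, a rise of 1.41 ± 0.22 (log2, SE; adjusted p = 8.68e-04). In the harvest stage it was 2909, 4338 and 3927 in the pileus and 1522, 787 and 2022 in the stipe. The groups did not overlap, at a difference of 1.45 ± 0.54 (adjusted p = 0.0345), a call lost in the voom test on recovered reads and when harvest pileus 2 or 3 or harvest stipe 1 or 2 was left out. A02260 (contig 16, 338722 to 339242, minus strand) was 2819, 2892 and 3276 in the button pileus, 867, 824 and 163 in the maturation pileus, 3008, 1185 and 1184 in the button stipe and 125, 101 and 80.6 in the maturation stipe. From button to maturation the log2 difference was -2.61 ± 0.55 in the pileus and -4.00 ± 0.55 in the stipe (adjusted p = 0.00161 and 7.79e-05), or -1.82 and -3.56 without the 2 libraries named above.

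Among the core histones, 4 lie in 2 head-to-head pairs, an arrangement common for histone genes, in which neighbours are transcribed away from each other. A00414 (contig 10, 325794 to 326403, minus strand), annotated as H2B, and A00415 (contig 10, 326594 to 327117, plus strand), annotated as H2A, are 190 bp apart with no gene between them. A04421 (contig 20, 284618 to 286355, minus strand) and A04422 (contig 20, 286670 to 287245, plus strand), which carries the H2A C-terminal domain, are 314 bp apart. The members of the first pair did not move alike. A00415 stood at 214, 256 and 266 FPKM in mycelia and 547, 574 and 748 in primordia (rise of 1.33 ± 0.16, adjusted p = 2.67e-04), while A00414 stood at 962, 919 and 1083 and 957, 1060.2 and 1291, with overlapping groups and a difference of 0.15 ± 0.17 (adjusted p = 0.447). Between button and maturation A00415 went from 916, 403 and 435 to 28.1, 28.7 and 26.2 in the stipe and A00414 from 1830.4, 1335 and 1236 to 508, 483 and 528. Both fell, by a log2 difference of -4.29 and -1.51. In the pileus the differences were -3.57 and -1.31, or -2.80 and -1.20 without the 2 libraries named above. Whether the 2 genes of the pair differed was not tested.

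The second pair moved more alike. A04421, whose model also holds an emp24/GOLD trafficking domain, was 458, 529 and 544 FPKM in mycelia and 815, 833 and 1071 in primordia, and A04422 was 462, 597 and 579 and 956, 996 and 1263. The primordia lay above the mycelia in every library, but the differences of 0.82 ± 0.16 and 0.97 ± 0.17 were under the threshold of 1 for a call. In the harvest stage A04421 was higher in the pileus by 1.20 ± 0.28 and A04422 by 1.57 ± 0.41 (adjusted p = 0.00274 and 0.00620), of which the first call was lost without harvest stipe 2. Both fell from button to maturation in the stipe, by a log2 difference of -1.53 and -2.01. The fall of A04422 in the pileus, -1.41 ± 0.41, was not called without maturation pileus 3.

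A07460 (contig 4, 1803306 to 1803837, minus strand), the remaining gene with the H2A C-terminal domain, and A05832 (contig 2, 1074258 to 1075056, plus strand) were of middle abundance. A05832 had the largest called rise of all members from mycelia to primordia, 94.6, 94.5 and 79.3 against 254, 258 and 288 FPKM, a log2 difference of 1.58 ± 0.12 (adjusted p = 2.75e-05). It was then level through the button stage, at 230.5, 238 and 262 in the pileus and 259, 213 and 239.6 in the stipe, and ended at 68.8, 69.2 and 35.8 and 47.2, 47.4 and 31.8. A07460 rose by 1.23 ± 0.14 into primordia and was the core histone called higher in the pileus at the button stage, 580.2, 669.8 and 740.3 against 507, 223 and 256 FPKM (1.10 ± 0.36, adjusted p = 0.0318). Button stipe 1 was the high library of the stipes, and the call was lost without button pileus 2 or 3 or button stipe 2 or 3. Without button stipe 1 and maturation pileus 3 the difference was 1.46. A09863 (contig 9, 745031 to 750431, plus strand) joins nucleoporin domains to a core histone domain in 1 gene model, which may merge 2 genes, and its levels of 79.8, 85.0 and 104 in mycelia and 193, 166 and 224 in primordia are those of the whole model.

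The 2 core histones furthest from this course were A03344 and A02277. A03344 (contig 1, 4121324 to 4122096, minus strand) was highest in mycelia, 2039, 1996 and 1899.8 FPKM, with primordia at 1104, 1133 and 1138, a difference of -0.81 ± 0.14 (adjusted p = 0.00155) that is under the threshold of 1. It was 772, 977 and 908 in the button pileus and 1634, 1439.7 and 1338 in the maturation stipe, and was called in none of the comparisons. Its share of the summed core histone FPKM was 22.3% in mycelia, 4.77% in the button pileus and 40.8% in the maturation stipe. A02260 moved the other way, from 16.1% in the button pileus to 2.84% in the maturation stipe. In maturation pileus 3, A03344 stood at 1835 FPKM against 954 and 924 in the other pilei, so that library was near the stipes here as well.

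A02277 (contig 16, 388975 to 389658, plus strand) was highest in mycelia. It stood at 79.8, 67.4 and 83.8 FPKM in mycelia and 8.18, 8.93 and 5.44 in primordia, and no later library was above 9.84. The fall of -3.36 ± 0.20 (log2, SE; adjusted p = 9.98e-06) was the largest of any member in this comparison and opposite to that of the other called core histones. At these low levels it was still higher in the harvest pileus, 4.50, 5.41 and 5.11, than in the harvest stipe, 1.46, 1.21 and 1.59 (1.75 ± 0.44, adjusted p = 0.00441), and it fell in the stipe from button to maturation by a log2 difference of -1.57, a call lost without button stipe 3. Across the 33 libraries the 66 pairs of core histones had a median r of 0.91 on the log2 scale, with 45 pairs above 0.8 and a lowest value of -0.68. These correlations describe libraries that share conditions, and copies of near-identical sequence may share reads, since the sources used here do not say how reads with several alignments were counted. The 3 genes most like A08404 among the members were A02197, A02260 and A00415 (r = 0.99, 0.99 and 0.98).

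The 3 linker histones had opposite patterns. A04600 (contig 21, 195100 to 195893, minus strand) and A04679 (contig 21, 440645 to 441612, plus strand) followed the core histones, while A04602 (contig 21, 198646 to 199746, plus strand), 2752 bp from A04600 on the other strand with 1 gene between, was higher in the young stipe than in the young pileus. A04600 rose from 420.1, 523 and 579 FPKM in mycelia to 1246, 1311 and 1755 in primordia (1.497 ± 0.19, adjusted p = 3.60e-04). In the pileus it stood at 1736, 1657 and 1723.9 at the button and 223, 263 and 70.6 at the maturation stage, and in the stipe at 2306, 1276 and 1379 and 70.7, 56.4 and 59.7. No library of the later stage reached one of the earlier, and the falls of -3.41 ± 0.46 and -4.68 ± 0.46 (adjusted p = 5.51e-05 and 5.75e-06) were the second largest and the largest among the members. Without the 2 libraries named above they were -2.82 and -4.42.

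Among the histones, A04679 had the largest differences in favour of the pileus. It was 388, 552 and 426 FPKM in the harvest pileus against 105, 69.8 and 173 in the harvest stipe, and 212, 193 and 29.7 against 19.2, 20.1 and 17.99 at maturation. The pilei lay above the stipes at both stages, with maturation pileus 3 close to the stipes. The differences were 2.06 ± 0.57 (adjusted p = 0.00785) and 2.48 ± 0.57 (adjusted p = 0.00346), the latter 3.401 without the 2 libraries named above.

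A04602 was instead at 233, 517 and 437 FPKM in the button stipe and 82.3, 62.6 and 48.4 in the button pileus, the largest difference in favour of the stipe among the members (-2.57 ± 0.28, adjusted p = 4.42e-05). In mycelia and primordia it was 141, 137 and 165 and 127, 114 and 159.6, with overlapping groups. At harvest the stipe was still higher, 193, 198 and 167 against 71.2, 106 and 60.8 (-1.27 ± 0.28, adjusted p = 0.00216), a call that quantile normalisation and scaling to library totals ended. At maturation the tissues overlapped, 170.0, 136 and 158 against 108, 119 and 155. The change of the difference between the tissues from button to maturation was 2.28 ± 0.40 (adjusted p = 0.00278), and 2.48 without the 2 libraries named above. Button stipe 1, at 233 FPKM, was the lowest button stipe and still above all button pilei. The rise of A04602 in the pileus, 1.002 ± 0.28, lay at the threshold and was not called without button pileus 2 or 3 or maturation pileus 3, with a pseudocount of 1, or under quantile normalisation or library totals.

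**Figure D3:**
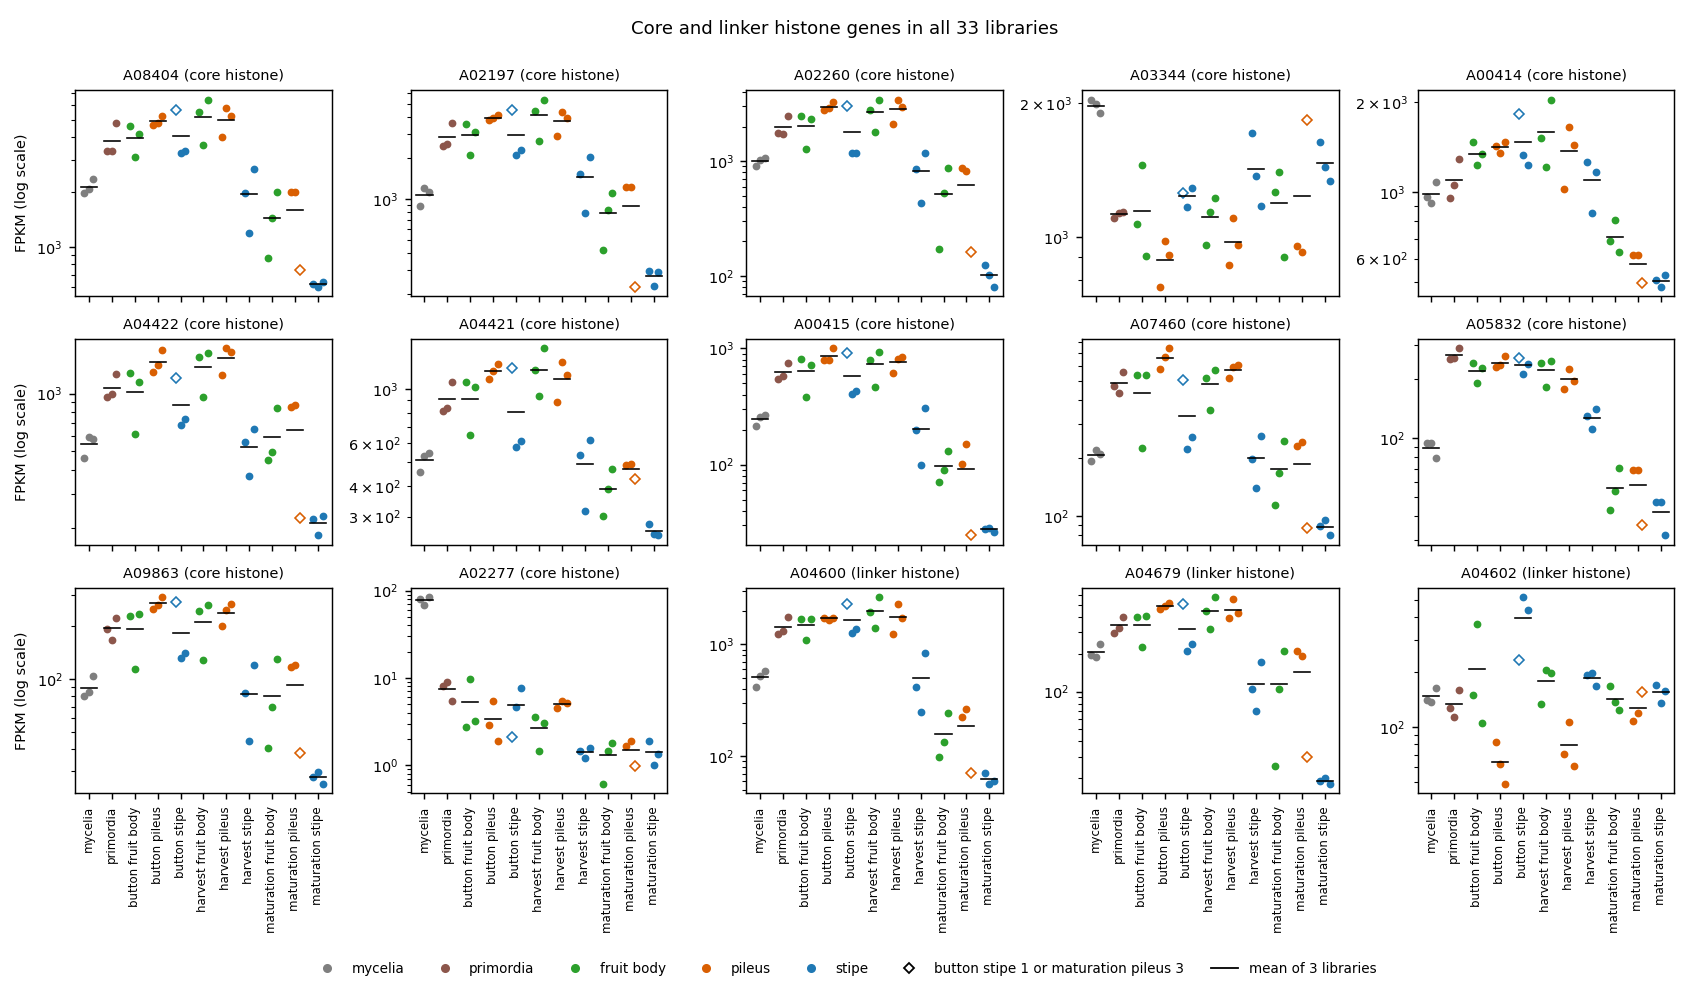
FPKM of the 12 core and 3 linker histone genes in all 33 libraries, a panel per gene, on a log axis, with a bar at the mean of the 3 libraries of a condition and open diamonds for button stipe 1 and maturation pileus 3. Most panels fall to their lowest level in the maturation stipe, A03344 is highest in mycelia, A02277 is high in mycelia alone, and A04602 is highest in the button stipe.

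Counted together, 6 of the 15 histones rose and 1 fell from mycelia to primordia (against 15.1% and 22.5% of all genes), with a median difference of 0.97 against -0.04 over all genes tested. In the harvest stage 11 were higher and 1 lower in the pileus than in the stipe (against 16.7% and 14.9% of all genes, with a median of 1.57 against 0.01), and at maturation 7 were higher and none lower (against 13.6% and 11.5%, with a median of 1.21 against 0.01). Of these 7, A00415 lay close to the threshold (adjusted p = 0.0494) and lost its call in 21 of the alternatives. A04600 lost its call at maturation without maturation pileus 1 or 2 or any maturation stipe, A08404 without maturation pileus 1 or 2 or maturation stipe 1 or 2, and A04422 without maturation pileus 1 or 2 or maturation stipe 2. At the button stage 1 was higher and 1 lower (against 7.91% and 9.96%), or 5 and 1 without the 2 libraries named above (against 13.7% and 15.7%). Between button and maturation 12 fell and 1 rose in the pileus (against 12.5% and 13.7% of all genes, with a median of -1.76 against -0.01), and 14 fell and none rose in the stipe (against 13.8% and 12.4%, with a median of -2.51 against -0.01). Without these libraries the counts were 11 and 0 in the pileus (against 12.5% and 15.2%) and 14 and 0 in the stipe (against 14.4% and 12%), with medians of -1.26 and -2.30, and 9 were higher in the maturation pileus (against 20.3%). The change of the difference between tissues was called upwards in 1 histone with all libraries, and in 7 without them (against 5.9% and 15.7%). A different scaling, to the recovered reads of each library, moved the median of all genes to 0.31 from mycelia to primordia, 0.19, 0.37 and 0.10 in the 3 comparisons of pileus and stipe, and -0.39 and -0.30 from button to maturation in pileus and stipe. The histones then had medians of 1.32, 0.69, 1.93, 1.30, -2.15 and -2.80 in these comparisons, away from all genes in the same direction.

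**Figure D4:**
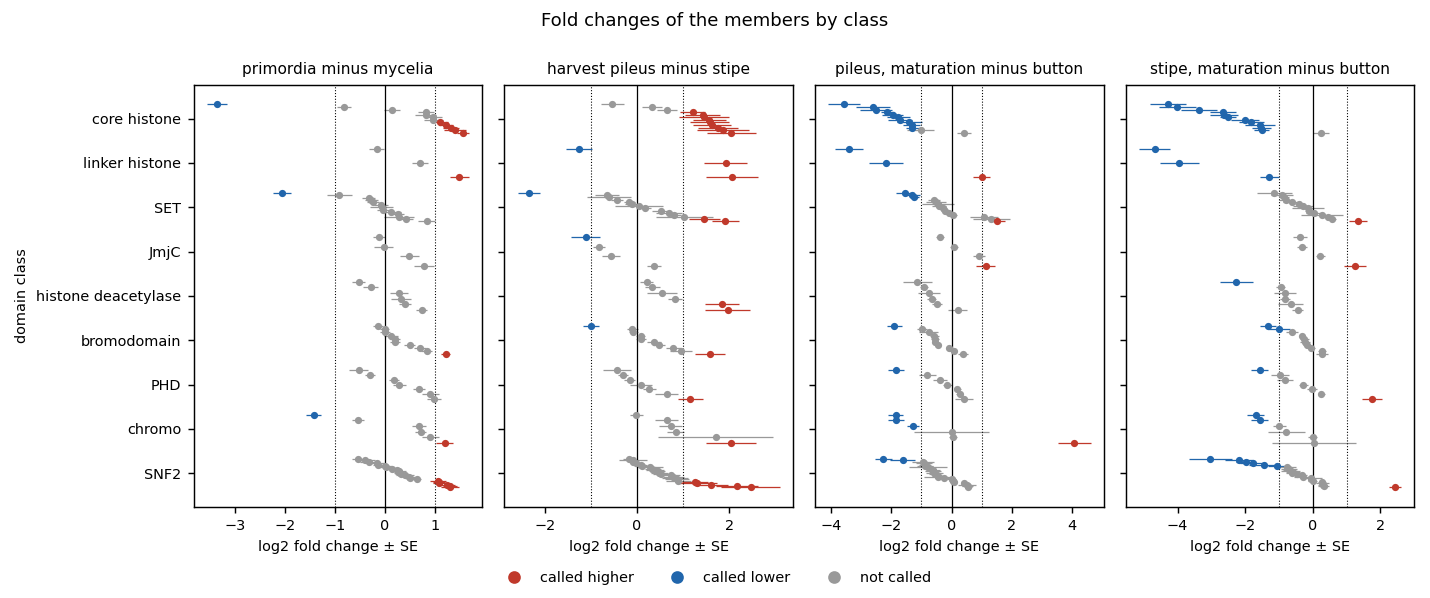
Log2 difference with its standard error for every member tested, by domain class, in 4 comparisons: primordia against mycelia, pileus against stipe at harvest, and maturation against button in the pileus and in the stipe. Red and blue points were called higher and lower, grey points were not called, and dotted lines stand at -1 and 1. Most histones are called in the 3 comparisons within fruit bodies, while most bromodomain and PHD finger genes are not called. Exceptions include the bromodomain genes A03485, A04244 and A09323 and the PHD finger genes A08360, A07686 and A00712.

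The SET domain genes, whose products methylate lysines of histones and, in some families, of other proteins, had no common direction. A09910, with a SET domain alone, was the most abundant of the 14, between 96.2, 71.7 and 78.3 FPKM in the button stipe and 168, 132 and 156 in the harvest stipe, and was called in no comparison. A08849, with the COMPASS domain of the Set1 type that methylates histone H3 in yeast, and A07295, with the Set2-Rpb1 interacting domain, were level as well, with condition means of 17.8 to 29.0 and 37.6 to 52.5 FPKM, and neither was called. A08601, the gene with a Pre-SET motif, the type found in the heterochromatin methyltransferase of fission yeast, fell in the pileus from 36.7, 36.9 and 35.2 to 17.5, 17.0 and 11.97 (-1.24 ± 0.15, adjusted p = 1.87e-05).

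A02538 was highest in mycelia, at 109, 85.0 and 69.6 FPKM there and 18.6, 23.7 and 20.3 in primordia (-2.05 ± 0.18, adjusted p = 5.73e-05). No library of the fruit body stages reached the mycelia. Its maturation pilei were 47.8, 40.2 and 8.5, with the third library the low one. A01666 was higher in the stipe at all 3 stages, with 22.3, 25.7 and 26.9 FPKM in the button stipe against 12.97, 10.2 and 8.80 in the pileus, 28.1, 29.5 and 25.7 against 6.21, 5.51 and 4.49 at harvest and 27.0, 32.1 and 19.4 against 7.08, 6.03 and 11.5 at maturation. The tissues did not overlap at any stage, and the differences were -1.23 ± 0.24, -2.35 ± 0.24 and -1.68 ± 0.24 (adjusted p = 0.00219, 1.30e-05 and 1.71e-04). A09283, a SET gene with the substrate-binding domain of the Rubisco methyltransferase family, leaned the other way, 14.4, 13.5 and 19.2 in the button pileus against 7.46, 2.91 and 3.62 in the stipe (1.83 ± 0.30, adjusted p = 7.78e-04). At maturation it stood at 6.13, 6.07 and 3.87 and 3.84, 3.47 and 3.13.

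A06684 was the SET gene that rose late. It was 9.33, 7.78 and 6.74 FPKM in the button pileus and 20.5, 19.0 and 30.0 in the maturation pileus (1.51 ± 0.26, adjusted p = 3.71e-04), and 8.69, 20.4 and 18.5 and 36.7, 34.6 and 41.3 in the stipe (1.33 ± 0.26, adjusted p = 0.00109). Button stipe 1 was low beside the other button stipes, and without it the difference in the stipe, 0.95 when maturation pileus 3 was also left out, was under the threshold. A SET gene added by StringTie was listed at 0 in all 3 mycelia libraries, with 0 reads, and had at most 1.22 FPKM as a condition mean later. It was left out of the test of mycelia and primordia by the filter on low values.

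The JmjC genes, whose domain removes methyl groups from lysine in histone demethylases, held 2 genes higher in the stipe. A09663, in which the JmjC domain shares a gene model with phosphoglycerate kinase, a glycolytic enzyme, stood at 169, 171 and 142 FPKM in the harvest pileus and 369, 409 and 274 in the harvest stipe (-1.11 ± 0.32, adjusted p = 0.00966, lost without harvest stipe 2, with quantile normalisation and when scaled to library totals). In the stipe it went from 133, 243 and 248 at the button to 475, 482 and 468 at the maturation stage (1.25 ± 0.32), and in the pileus from 138, 127 and 113 to 194, 205 and 524 (1.14 ± 0.32). Button stipe 1 and maturation pileus 3 decide the last 2 calls, and both were lost without them (0.95 and 0.67) and under the same 2 scalings. Which of the domains the reads belong to cannot be read from 1 value per gene. A01179 was 39.4, 37.5 and 31.8 FPKM in the button pileus against 56.5, 97.8 and 79.7 in the button stipe (-1.07 ± 0.20, adjusted p = 0.00150, lost without button pileus 3 or button stipe 2 and when scaled to library totals) and 69.1, 58.6 and 76.1 against 54.7, 50.6 and 71.8 at maturation, where the tissues overlapped. The change of this difference was 1.28 ± 0.28 (adjusted p = 0.00909), or 1.41 without the 2 libraries named above. The other 2, A02466 and the PLU-1 type A09914, were called in no comparison.

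The deacetylases, which remove acetyl groups from histone tails, were higher in the pileus where they were called. A01214, the most abundant, was 113, 113 and 134 FPKM in mycelia, 245, 257 and 248 in the button pileus and 131, 149.7 and 178 in the maturation stipe, and was not called. A02980 was 22.0, 25.1 and 31.4 in the button pileus against 11.7, 5.93 and 6.21 in the stipe, 25.3, 18.6 and 30.9 against 7.16, 5.61 and 7.74 at harvest and 24.2, 19.5 and 7.48 against 4.39, 5.17 and 4.75 at maturation, called at all 3 stages (1.76 ± 0.37, 1.83 ± 0.37 and 1.66 ± 0.37). A01806 was higher in the pileus at harvest and maturation, 31.4, 29.2 and 28.3 against 6.66, 7.99 and 7.96 (1.96 ± 0.49) and 29.6, 24.9 and 4.45 against 3.84, 3.53 and 2.09 (2.25 ± 0.49), and maturation pileus 3 was again the low pileus. In the stipe A01806 fell by a log2 difference of -2.27 from button to maturation. No deacetylase was called from mycelia to primordia, and none was called higher in the stipe.

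Most bromodomain genes were steady in level. A03664, of the BET type that ties acetylated chromatin to transcription in animals and yeast, was the most abundant, with condition means between 79.4 FPKM in mycelia and 155 in harvest fruit bodies, and was not called. A03485, which joins a BAH domain to its bromodomain, was among the members of the class that moved. It stood at 24.3, 24.1 and 24.7 FPKM in mycelia and 58.3, 55.6 and 57.5 in primordia (1.22 ± 0.09, adjusted p = 2.91e-05), and fell from button to maturation from 75.4, 75.6 and 80.1 to 26.2, 25.1 and 13.2 in the pileus (-1.90 ± 0.24) and from 56.6, 32.6 and 38.5 to 17.0, 17.2 and 15.2 in the stipe (-1.33 ± 0.24). A04244 was called higher in the pileus at all 3 stages (1.23 ± 0.32, 1.58 ± 0.32 and 1.47 ± 0.32), with condition means of 49.7 and 16.7 FPKM at harvest. A09323, with a GNAT acetyltransferase domain as in yeast Gcn5, was higher in the stipe, 112, 125 and 115 against 59.2, 63.8 and 52.8 at harvest, at a difference of -1.004 ± 0.17, on the threshold itself (adjusted p = 4.09e-04).

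Among the PHD finger genes, A07686, which also has RCC1 repeats, was the most abundant and the 1 that rose. It was 73.9, 47.2 and 60.0 FPKM in the button stipe and 172, 151 and 305 in the maturation stipe (1.74 ± 0.30, adjusted p = 4.16e-04), while the button and maturation pilei were 97.7, 97.9 and 109 and 113, 93.3 and 237. Without button stipe 1 and maturation pileus 3 its change of the difference between tissues was -1.88 (adjusted p = 4.81e-04), and -1.32 ± 0.43 with all libraries (adjusted p = 0.0563). A00712 was higher in the harvest pileus by 1.15 ± 0.27 and A08360, with both a chromo domain and a PHD finger, fell from button to maturation in the pileus and the stipe (-1.84 ± 0.25 and -1.57 ± 0.25). The other 4 PHD finger genes were called in no comparison.

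The chromo genes split into a chromatin-type set and genes that carry retroelement domains. A02267, with a chromo and a chromo shadow domain as in heterochromatin protein 1, was the most abundant regulator in the whole set. It stood at 228, 264 and 267 FPKM in mycelia, 419, 354 and 459.9 in primordia, 489, 534 and 624 in the button pileus and 178, 196 and 97.9 in the maturation pileus, and 400.1, 244 and 277 and 83.7, 106 and 89.99 in the stipes of these stages. The falls of -1.86 ± 0.25 and -1.69 ± 0.25 (adjusted p = 4.65e-05 and 1.20e-04) held without the 2 libraries named above (-1.55 and -1.48). A07181, a gene model that joins nucleoporin and chromo domains, fell in the pileus by a log2 difference of -1.28.

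Of the 16 chromo genes, 11 also held an integrase or reverse transcriptase domain, as chromo-bearing LTR retrotransposons do. Of these, 9 had a mean FPKM under 0.5 over the 33 libraries, as did A00968, and no library of these 10 genes was above 0.784 FPKM. Among them A00257, A04485 and A09051 had the same gene length, 5730 bp. Copies of near-identical sequence may share reads, and how reads with several alignments were counted is not stated. A low value here need not mean that no transcript was made. These 10 genes passed the filter of no main fit and are described only by this limit. The remaining 2, A07506 and A08175, were expressed. A07506 (contig 4, 1964642 to 1969735, minus strand), with gag-protease, reverse transcriptase and chromo domains, was 9.71, 8.96 and 7.87 FPKM in mycelia and 3.28, 3.11 and 3.31 in primordia (-1.42 ± 0.15, adjusted p = 1.36e-04), a call lost in the fit of all 33 libraries. In the pileus it was 3.26, 2.91 and 3.24 at the button, 23.4, 6.67 and 12.4 at the harvest and 108, 86.6 and 17.3 at the maturation stage, against 2.29, 1.98 and 1.87, 2.61, 4.14 and 2.36 and 1.04, 1.12 and 1.28 in the stipe. The mature pileus was thus high and the mature stipe at the lowest level of all conditions, with maturation pileus 3 between them, and the maturation fruit bodies, at 1.24, 39.3 and 96.5, covered the whole range.

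The rise of A07506 in the pileus was 4.08 ± 0.54 (adjusted p = 4.59e-05), its difference between tissues at maturation 5.46 ± 0.54 (adjusted p = 1.30e-05) and the change of that difference from the button stage 4.87 ± 0.77 (adjusted p = 0.00167), or 4.91, 6.29 and 5.61 without the 2 libraries named above. A08175, with integrase, protease and chromo domains, rose from 2.09, 1.74 and 1.93 FPKM in mycelia to 4.82, 4.18 and 4.59 in primordia (1.20 ± 0.18). At maturation its pilei were at 48.0, 0.0920 and 8.33 and its fruit bodies at 2.31, 1.52 and 40.5, against stipes at 2.63, 2.70 and 2.69. The replicates of pileus and fruit body differed by more than the tissues, and no call was made there. The kit does not mark strand, so reads from either strand of these elements count alike.

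**Figure D5:**
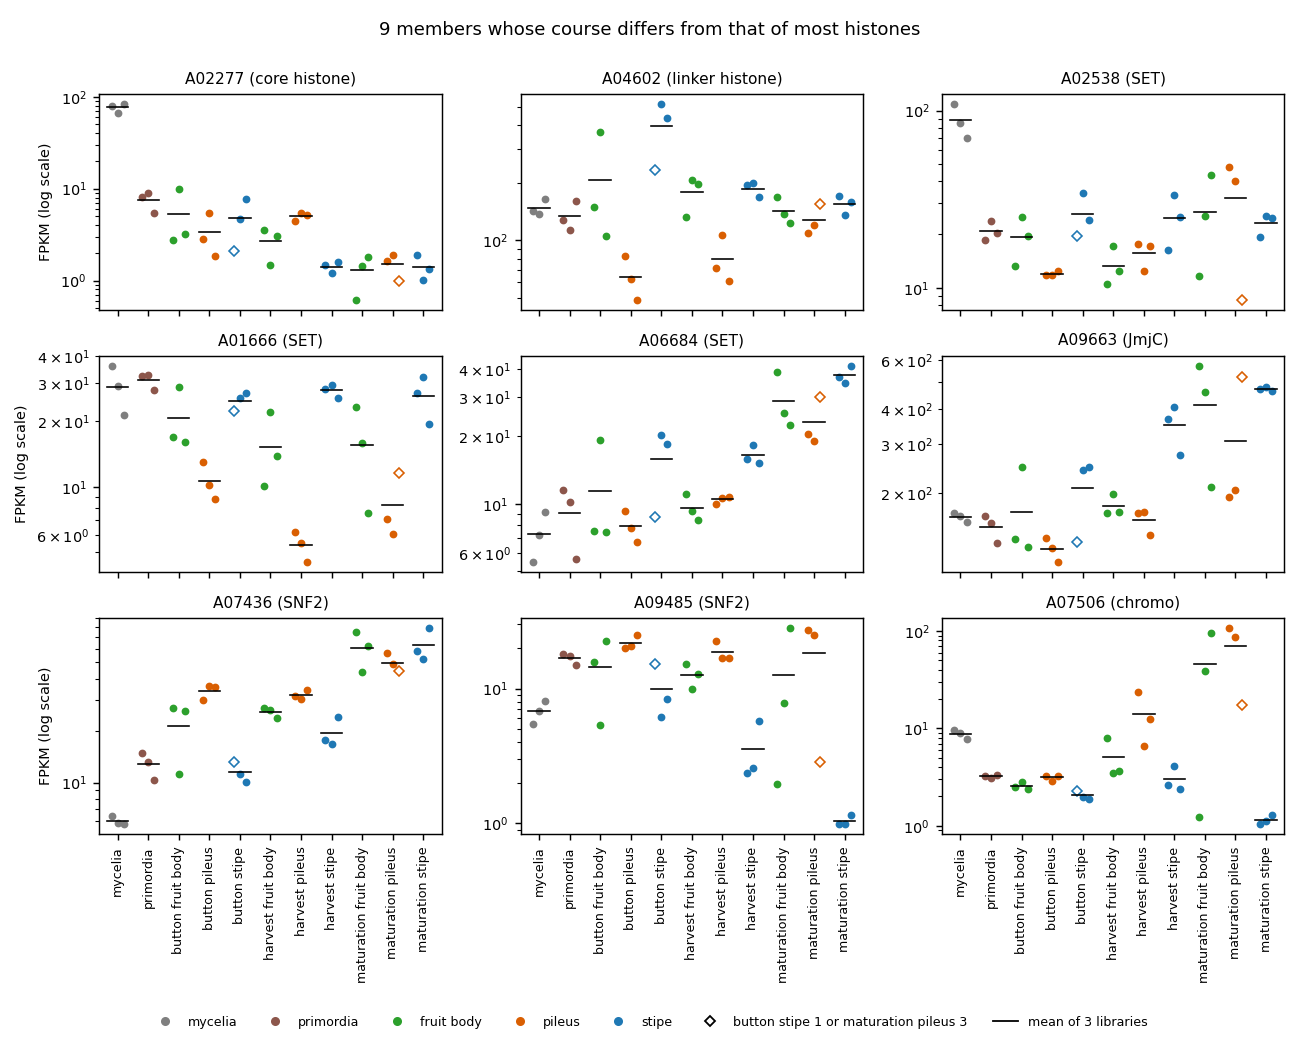
FPKM of 9 members in all 33 libraries on a log axis, a panel per gene, with a bar at the mean of each condition and open diamonds for button stipe 1 and maturation pileus 3, drawn after their values were seen. A02277 and A02538 are high in mycelia, A04602 and A01666 are higher in the stipe than the pileus at the button stage, A06684, A09663 and A07436 end above their button stipe levels, and A09485 and A07506 separate the mature pileus from the mature stipe.

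The SNF2 genes, the ATPase subunits of remodelling complexes and related helicases, rose in 6 of 22 cases from mycelia to primordia (against 15.1% of all genes) and fell in none (against 22.5%). The 6 were A02425, A09485, A04155, A07847, A03168 and A07436, with log2 differences of 1.07 to 1.31. The call of A07436 was lost with a pseudocount of 1 or without primordia 1, and that of A09485 in a fit of all 33 libraries. The most abundant, A09349, of the Chd1 type in its chromo and SNF2 domains, and A03642, with the QLQ, HSA and bromodomain of the SWI/SNF type, were called in no comparison. A03642 had condition means of 77.5 to 93.3 FPKM, and A09349 of 88.3 to 149.9. In pileus against stipe, 3, 5 and 4 SNF2 genes were higher in the pileus at the button, harvest and maturation stages (against 7.91%, 16.7% and 13.6% of all genes), and none was higher in the stipe at any of them (against 9.96%, 14.9% and 11.5%).

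A09485 and A01883 had the largest differences between the tissues among the SNF2 genes at harvest and maturation. A09485 was 22.4, 16.9 and 16.9 FPKM in the harvest pileus against 2.37, 2.59 and 5.72 in the stipe (2.46 ± 0.63, adjusted p = 0.00530), and 27.4, 25.1 and 2.85 against 0.987, 0.997 and 1.16 at maturation (3.47 ± 0.63, adjusted p = 8.47e-04). The mature stipes were all near 1 FPKM, after 15.3, 6.11 and 8.40 at the button stage. A01883 was 63.8, 73.5 and 84.8 against 45.0, 18.7 and 23.4 at the button stage, 79.1, 62.9 and 72.8 against 13.9, 11.7 and 24.1 at harvest and 90.1, 75.8 and 22.2 against 9.26, 7.54 and 14.0 at maturation. Its differences were 1.44 ± 0.45, 2.17 ± 0.45 and 2.41 ± 0.45, and the first was lost when button pileus 2 or 3 or button stipe 2 or 3 was left out and in the fit of all 33 libraries. A07847, which joins SNF2 and C-5 cytosine DNA methylase domains, fell from 24.8, 26.2 and 27.4 to 6.51, 7.13 and 3.24 in the pileus (-2.27 ± 0.28) and from 21.8, 10.8 and 12.9 to 3.28, 4.11 and 3.44 in the stipe (-1.98 ± 0.28).

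A07436 was the SNF2 gene that rose through development. It was 6.37, 5.85 and 5.73 FPKM in mycelia, 14.9, 13.2 and 10.4 in primordia, 30.3, 36.4 and 35.7 in the button pileus and 13.1, 11.2 and 10.1 in the button stipe. At maturation it was 56.6, 48.6 and 44.4 in the pileus and 57.9, 52.2 and 79.5 in the stipe, so the pileus led at the button stage (1.57 ± 0.18, adjusted p = 6.19e-05) and the tissues overlapped at the end. The rise in the stipe was 2.44 ± 0.18 (adjusted p = 5.29e-07), and the change of the difference between tissues was -1.89 ± 0.26 (adjusted p = 6.15e-04), or -1.91 without the 2 libraries named above. A07553, with the HAND and SLIDE domains of the ISWI type, changed in the same direction on a smaller scale, from 7.26, 8.90 and 8.64 against 5.91, 4.52 and 5.23 FPKM at the button stage to 5.58, 4.42 and 5.24 against 6.53, 7.198 and 5.85 at maturation. This change of -1.01 ± 0.23 (adjusted p = 0.0127) was lost with a pseudocount of 1 and without button pileus 2 or 3, button stipe 2, maturation pileus 2 or maturation stipe 2, each left out alone, and was -1.13 without the 2 libraries named above.

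Genes that work beside histones were set next to them as lists taken by domain. The 10 DNA replication genes (MCM helicase subunits, PCNA, ribonucleotide reductase) are active in S phase. From mycelia to primordia 5 rose and none fell (against 15.1% and 22.5% of all genes, median 0.97), with A01367, an MCM subunit, at 1.68 and A06848, the large chain of ribonucleotide reductase, at 1.01, a call lost without mycelia 2 or primordia 1, with a pseudocount of 1 and in the fit of all 33 libraries. At harvest 9 were higher in the pileus (against 16.7% of all genes), from 1.24 for the small chain A05581, lost without any pileus or without harvest stipe 1 or 2, to 2.38 for the MCM gene A03744. Between button and maturation 8 fell in the pileus and 8 in the stipe (against 12.5% and 13.8% of all genes), with medians of -2.004 and -2.21. Over the 33 libraries A05581 had r = 0.99 and the PCNA gene A01836 r = 0.96 with A08404 on the log2 scale, as a description.

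Of the 9 histone chaperones, which carry histones to and from DNA, 3 rose and 1 fell from mycelia to primordia (against 15.1% and 22.5% of all genes), from the SPT6 gene A09876 at 1.37 to the Rtt106-like A07445 at -1.19, the latter lost when scaled to library totals. At harvest 2 were higher in the pileus (against 16.7%), A04645, the large subunit of chromatin assembly factor 1, at 2.10 and A09698 (SPT16) at 1.05, the latter lost without harvest stipe 1 or 2. From button to maturation 4 fell and 1 rose in the pileus (against 12.5% and 13.7%) and 3 fell in the stipe (against 13.8%), where A04645 fell by a log2 difference of -2.10. The call of A04645 in the pileus (-1.46) was lost without maturation pileus 3. Among 8 condensin and cohesin genes, which shape chromosomes for division, 2 rose into primordia (against 15.1% of all genes). These were A03423, a condensin subunit, by 1.67 and the SMC gene A03243 by 1.38. In this list 6 were higher in the harvest pileus (against 16.7% of all genes), and 5 fell in the stipe (against 13.8%). In the pileus 4 fell from button to maturation, and 0 without the 2 libraries named above (against 12.5% and 12.5%).

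The list of 23 other histone-modifying and chromatin-binding enzymes, in which A07847 was counted again, had 2 genes called higher and 1 lower in primordia (against 15.1% and 22.5% of all genes). The latter was A07844, a Sir2-type deacetylase, at -3.62 ± 0.21, from 21.1, 24.6 and 27.5 FPKM in mycelia to 1.90, 2.40 and 1.44 in primordia. It was higher in the harvest pileus by 2.43 and rose in the stipe by 2.33. Of this list 6 were higher in the harvest pileus (against 16.7% of all genes), 4 fell in the pileus (against 12.5%) and 5 fell in the stipe (against 13.8%), among them A04713, the Hat1 type that acetylates new histone H4 in yeast, at -2.20 and -2.28.

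Of the 8 meiosis genes, 4 rose and none fell from button to maturation in the pileus (against 13.7% and 12.5% of all genes, median 1.06), while in the stipe 1 fell (against 13.8%). Among those that rose was A03778 at 1.16, a call lost in 15 alternatives. At harvest 3 were higher in the pileus than in the stipe, and at maturation 4 (against 16.7% and 13.6%). The change of the difference between tissues from button to maturation was called upwards in 3 (against 5.9%), and in 5 without the 2 libraries named above (against 15.7%). The comparisons of pileus and stipe and of the stages share libraries, so their counts are not independent of each other.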

How the data were processed

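Total RNA was extracted with TRIzol, libraries were made with the NEBNext Ultra RNA kit, which does not mark strand, and sequenced as paired reads. Reads were aligned by the authors to the JA-15036 assembly with Hisat2. They added genes with StringTie and counted reads per gene with featureCounts 1.5.0-p3. The deposited values are FPKM made by the authors from those counts. FPKM times gene length gave whole multiples of 1 unit per library for 100% of 341121 values within 1e-06, so reads could be read back. The library size used by the authors was between 0.742 and 1.22 times the reads on genes. Reads ranged from 15573864 to 21454052 per library. The table's contig positions are those of the JA-15036 assembly. All 33 value columns were matched to a sample.

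Differences were tested on log2(FPKM + 0.1) by limma 3.58.1 (R 4.3.3, intensity trend on). A gene entered a fit if its FPKM averaged at least 0.5 there, with p-values adjusted by Benjamini-Hochberg over all genes tested. A call needed an adjusted p under 0.05 and a log2 difference of at least 1 in size. Mycelia with primordia, and primordia with button fruit bodies, were fitted on 6 libraries each, and pileus and stipe of the 3 stages on 18 libraries. The deposited unit being FPKM, the main fits used no count model, and voom on the recovered reads was run as an alternative. On simulated data with 200 changed genes the fits recovered 200 of 200 from mycelia to primordia with 2 false calls. They recovered 200 of 200 from primordia to button fruit bodies with 3, and 200 of 200 between the button tissues with 0. The planted changes were all larger than the threshold for a call, with the same dispersion for every gene and no outlying library. Recovery of smaller changes, or with outlying libraries as in the data, was not simulated.

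The members were chosen by domain, and members and lists were chosen with earlier results of these data known. The text names every histone, the member of each other class with the highest mean FPKM, for each comparison the 3 largest rises and falls among called members whose libraries did not overlap, every member whose difference between tissues changed, and the extreme called genes of each list. Further members are named where a function or a count made them of use, after their values were seen. The alternatives were other pseudocounts (1 and 0.01), filters (none, and a mean FPKM of 5), quantile normalisation, scaling to library totals, a fit of all 33 libraries, a replicate block, voom on recovered reads, and leaving out each library. The alternative without button stipe 1 and maturation pileus 3 was chosen after seeing the data. The labels do not say whether replicate numbers pair the libraries. Between primordia and button fruit bodies, deviations of the same number correlated at 0.112, 0.285 and 0.115. Button fruit body 1 and primordia 3, of unlike number, reached 0.116, so pairing could not be told from these values. In the other comparisons at least 1 correlation of the same number was under 0.1. The values of 1 gene of the meiosis list are not reported here.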

Additional observations from a re-analysis of the deposited data

Results flagged for a closer look

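In 5 members the difference between pileus and stipe was not the same at maturation as at the button stage, by a test of the change itself in the limma fit of 18 libraries. For A07506, the retroelement-like chromo gene, the change was 4.87 (log2, adjusted p = 0.00167), and 5.61 without button stipe 1 and maturation pileus 3. For the linker histone A04602 it was 2.28 (adjusted p = 0.00278), and 2.48 without them. For the JmjC gene A01179 it was 1.28 (adjusted p = 0.00909), and 1.41 without them. The SNF2 genes A07436 and A07553 changed the other way, by -1.89 (adjusted p = 6.15e-04) and -1.01 (adjusted p = 0.0127), and by -1.91 and -1.13 without them.

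Leaving out these 2 libraries called the change in 16 more members. Among them were the histones A04679 (2.29, against 1.76 with all libraries), A02260 (1.73, 1.39), A04600 (1.60, 1.28), A02197 (1.33, 0.86) and A08404 (1.12, 0.90), the SNF2 gene A09485 (2.94, 2.25), the SET gene A02538 (2.18, 1.22) and the deacetylases A01806 (1.91, 1.13) and A07039 (1.48, 1.02). These members were called only after libraries were left out on the strength of the data. Of all genes, 15.7% and 11% were called upwards and downwards without these libraries, against 5.9% and 3.48% with all.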

How the results depend on the processing

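The alternatives were followed for 151 results of genes named in the text, called or not, and not for every member. None of their 3873 values changed sign, but many could not. The called results among them were followed because their log2 difference was at least 1 in size. Leaving out a library outside the groups compared, or adding the replicate block, cannot alter a difference in these fits, only its p-value. Of the 3873 values, 3682 stayed called or uncalled as before, 148 lost their call and 43 gained one. Counts of members called moved by over 1.5 times in these cases. Scaling to library totals gave 29 higher in primordia, 11 higher in the button pileus, 37 higher and 1 lower in the harvest pileus, and 2 rising and 35 falling in the pileus. Counts over all genes moved too under this scaling, from 1431 to 2286 higher in primordia, from 739 to 975 higher in the button pileus, from 1558 to 2302 higher and 1391 to 937 lower in the harvest pileus, and from 1281 to 813 rising and 1168 to 1998 falling in the pileus. Quantile normalisation gave 25 higher in primordia, 1 lower in the harvest pileus and 5 downward changes of the difference between tissues, and a pseudocount of 1 gave 1. Over all genes, quantile normalisation gave 1897 higher in primordia, 1404 lower in the harvest pileus and 490 downward changes, against 325 without it, and a pseudocount of 1 gave 341. Leaving out button stipe 1 and maturation pileus 3, chosen after seeing the data, gave 18 higher and 6 lower in the button pileus, 3 lower in the maturation pileus, 2 rising in the stipe, and 16 upward and 5 downward changes of the difference. Over all genes it gave 1283 higher and 1468 lower in the button pileus, 1694 lower in the maturation pileus and 1125 rising in the stipe. Changes of the difference over all genes were then 1462 upward and 1027 downward.

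With each library left out in turn, counts were 14 to 17 higher and 3 to 4 lower in primordia, 0 to 1 and 0 to 1 in button fruit bodies, 3 to 12 and 2 to 5 in the button pileus, 19 to 25 and 2 to 4 in the harvest pileus, and 10 to 22 and 1 to 3 in the maturation pileus. They were 3 to 6 rising and 20 to 27 falling in the pileus, 2 to 4 and 23 to 28 in the stipe, and 3 to 18 upward and 1 to 4 downward changes of the difference. The libraries behind moves of over 1.5 times were button fruit body 2, button stipe 1 (12 higher and 5 lower in the button pileus, 2 rising in the stipe, 4 downward changes), button stipes 2 and 3 (3 and 4 higher in the button pileus), button pileus 1 (5 lower there), harvest stipe 2 (2 lower in the harvest pileus), maturation pileus 1 (10 higher in the maturation pileus) and maturation pileus 3 (3 lower there, 18 upward and 4 downward changes). Counts over all genes in the button pileus were 1104 higher and 1323 lower without button stipe 1, against 739 and 930 with all libraries. They were 447 and 470 higher without button stipes 2 and 3, and 873 lower without button pileus 1. In the harvest pileus 1214 were lower without harvest stipe 2 (1391 with all libraries). In the maturation pileus 901 were higher without maturation pileus 1 (1267 with all libraries). Without button pileus 2 or 3, button stipe 2 or maturation pileus 2 there was 1 downward change. All genes then had 234, 211, 274 and 267, against 325 with all libraries. Over all genes, leaving out maturation pileus 3 gave 1305 upward and 897 downward changes (against 551 and 325) and 1645 lower in the maturation pileus (against 1078). Leaving out button stipe 1 gave 472 downward changes and 974 rising in the stipe (against 1156). Leaving out button fruit body 2 gave 150 higher and 229 lower in button fruit bodies (against 2 and 1). The replicate block changed no member call between primordia and button fruit bodies (0 and 0). In the other comparisons the block gave 14 and 3, 7 and 3, 23 and 4, 15 and 1, 4 and 21, 4 and 25, and 3 and 3. The filter kept the 10 members under 0.5 FPKM out of the main fits. All 91 members were tested from mycelia to primordia only in the alternative without a filter.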
